A study of Homo sapiens with 6 samples.

Results

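CPS1, the enzymes of the urea cycle, glutamine synthetase and the pyrimidine enzyme CAD were described in 6 libraries of poly(A)-selected RNA from cells labelled Hep3B, a line derived from a human hepatocellular carcinoma. The members were 9 genes chosen by symbol (CPS1, OTC, ASS1, ASL, ARG1, ARG2, NAGS, GLUL and CAD), out of 50229 symbols in a table of 60612 rows. Where rows shared a symbol, the row with the highest mean FPKM over all libraries was to be taken, and each of the 9 symbols had a single row. FPKM is a fragment count scaled to exon length and to the library total, so it can be compared between genes. All cells received 50 nM of a small interfering RNA, which was directed against EIF4G2 in 3 libraries (siEIF4G2) and was a control in the other 3 (siNC). The sources used here give neither the sequences of these RNAs nor the time after transfection. No label says that replicates came from separate cultures, and the spread behind each p-value is that between libraries, possibly only technical.

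The urea cycle turns ammonia into urea and runs in full in hepatocytes. In mitochondria, CPS1 joins ammonia and bicarbonate to carbamoyl phosphate, and needs N-acetylglutamate, the product of NAGS, to be active. OTC passes the carbamoyl group to ornithine. In the cytosol ASS1 adds aspartate, ASL splits the product into arginine and fumarate, and ARG1 splits arginine into urea and ornithine. ARG2 is the mitochondrial arginase found in many tissues outside the liver. GLUL fixes ammonia into glutamine, and CAD starts pyrimidine synthesis in the cytosol with a glutamine-using carbamoyl phosphate synthetase of its own.

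The libraries held 63351653 to 72863628 counts. EIF4G2, the silenced gene, lay at 178 to 199.8 CPM in siEIF4G2 and at 913 to 1103 CPM in siNC, 5.41-fold lower after silencing (adjusted p from edgeR 0.000207). CPM is the count relative to the library total after scaling with edgeR's TMM factors. Tested alone with exact permutations of 3 libraries against 3, two-sided, no gene can go below p = 0.1, the value EIF4G2 reached, so calls here rest on edgeR's fit across all genes. Of 15 hepatocyte markers, 11 were listed at 0 counts in all 6 libraries, ALB, AFP, APOA1 and TTR among them, and the summed FPKM of the list was at most 0.0383 in siEIF4G2 and 0.0515 in siNC. Transcripts of these hepatocyte markers were therefore absent or nearly so in these libraries, although the labels name a hepatocellular carcinoma line. The 6 simple epithelial markers summed to 419 to 456 FPKM in siEIF4G2 and 548 to 576 FPKM in siNC, and the 8 fibroblast markers to 99.5 to 101 FPKM and 77.1 to 85.4 FPKM. The 5 tested fibroblast markers moved in both directions, with COL3A1, DCN and LUM higher (0.35, 0.73 and 0.38 on the log2 scale) and COL1A1 and PDGFRB lower (-0.43 and -1.19). None of the 6 epithelial and 8 fibroblast markers was at 0 throughout. However, only 3 of these epithelial and 5 of these fibroblast markers reached 0.5 FPKM in at least 3 libraries. The 3 epithelial ones were KRT7, KRT18 and KRT8, with log2 fold changes of -1.09, -0.18 and -0.14, and KRT8 did not pass. The part of such shifts in the results below was not tested. In bulk RNA, fewer cells of a type and less RNA per cell cannot be told apart.

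CPS1 was the most abundant member in every library. Its FPKM was 182.6, 210.7 and 193.6 in siEIF4G2 replicates 1, 2 and 3, and 179.7, 170.0 and 186.0 in siNC replicates 1, 2 and 3. The gene (ENSG00000021826) lies on chromosome 2 from 210477682 to 210679107, plus strand, in GRCh38 coordinates. By mean FPKM it stood at rank 151 of the 13748 genes that passed the filter on low values (at least 0.5 FPKM in at least 3 libraries). CPS1 held 81.6% to 83.3% of all member counts in siEIF4G2 and 78.0% to 79.1% in siNC.

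ASS1 (ENSG00000130707, chromosome 9 from 130444961 to 130501274, plus strand) came next, at rank 308, with 91.3 to 96.7 FPKM in siEIF4G2 and 122 to 126 FPKM in siNC. CAD (ENSG00000084774, chromosome 2 from 27217369 to 27243943, plus strand) followed at rank 3454 with 10.3 to 12.8 FPKM over the 6 libraries. GLUL (ENSG00000135821, chromosome 1 from 182378098 to 182391792, minus strand) had 3.42 to 3.97 FPKM. The step from ASS1 to CAD was therefore the widest among the members that were clearly expressed.

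ASL (ENSG00000126522, chromosome 7 from 66075800 to 66094697, plus strand) had 2.61 to 3.2 FPKM, and ARG2 (ENSG00000081181, chromosome 14 from 67619920 to 67651708, plus strand) had 1.82 to 2.77 FPKM. In FPKM, the ranges of ASL and ARG2 overlapped within siEIF4G2 (2.61 to 2.77 and 2.39 to 2.77) but not within siNC. That overlap depended on the length behind FPKM. Per kilobase of the longest coding transcript, ASL had 8.65 to 10.9 CPM over the 6 libraries and ARG2 2.46 to 3.65 CPM. NAGS (ENSG00000161653, chromosome 17 from 44004622 to 44009068, plus strand) had 0.351 to 0.66 FPKM and stood at rank 13543, near the filter. Only 3 of its 6 libraries reached the filter's 0.5 FPKM.

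OTC and ARG1, the steps before ASS1 and after ASL in the hepatocyte cycle, were not detectable or nearly so. OTC (ENSG00000036473, chromosome X from 38352586 to 38421446, plus strand) was listed at 0 counts in all 6 libraries. Since 0 counts are compatible with up to 3, the limit per library was 0.0403 to 0.0466 CPM, for counting error only. ARG1 (ENSG00000118520, chromosome 6 from 131470832 to 131584332, plus strand) had 0, 3 and 4 counts in siEIF4G2 replicates 1, 2 and 3, and 0, 8 and 0 counts in siNC replicates 1, 2 and 3. Its interval overlaps that of MED23 on the opposite strand, with a mean of 2740 counts, but their exons share 0 bases. Neither gene passed the filter, so neither was compared between groups.

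**Figure D1:**
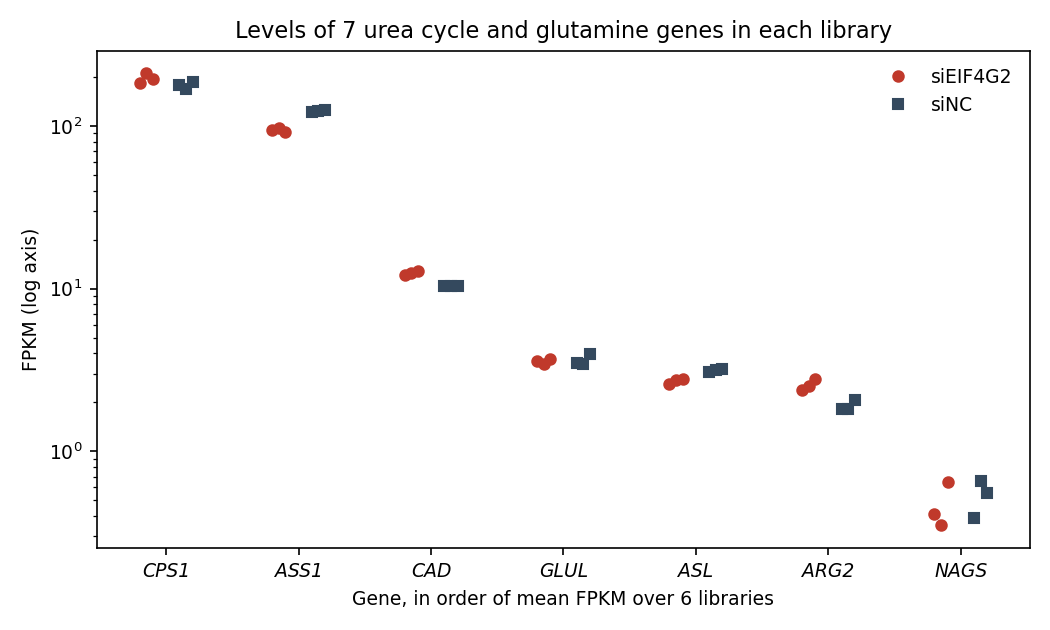
FPKM on a log axis of the 7 members that passed the filter, in order of their mean, with a red circle for each siEIF4G2 library and a dark square for each siNC library (3 per group). CPS1 and ASS1 sit above 90 FPKM in all 6 libraries, CAD between 10.3 and 12.8 FPKM, and the other 4 at or below 3.97 FPKM.

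For most genes, the deposited FPKM values follow the summed length of all annotated exons. ASL and GLUL departed from this. Their counts per FPKM imply lengths above their summed exons of 3195 and 9032 bases, so their FPKM reads low beside the other tested members. For CPS1 the summed length is 10775 bases in GENCODE 29, against 5821 bases for its longest protein-coding transcript. Per kilobase of that transcript, CPS1 stood at 439 ± 38.4 CPM in siEIF4G2 against 407 ± 18.4 CPM in siNC (SD, n = 3). On this scale ASS1 read 170 ± 7.32 and 228 ± 2.82 CPM per kilobase, CAD 17.2 ± 0.51 and 14.5 ± 0.0725, and GLUL 11.3 ± 0.246 and 11.7 ± 0.932. ASL read 9.08 ± 0.386 and 10.7 ± 0.175 CPM per kilobase, ARG2 3.39 ± 0.258 and 2.58 ± 0.19, and NAGS 0.705 ± 0.226 and 0.822 ± 0.207. The order of the 7 members by mean was the same as by FPKM, and only the distances between them changed. The order of GLUL and ASL depends on the length used, as mean CPM over the summed exon length puts ASL above GLUL.

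EIF4G2 is a translation initiation factor, and the next comparison asked how the members' transcripts differ once it is silenced. Of 7 members tested, ASS1 and ASL passed as lower and CAD and ARG2 as higher in siEIF4G2, while CPS1, GLUL and NAGS did not pass. That is 4 of 7 at an edgeR adjusted p under 0.05, where 33.4% of all 13748 tested genes passed, 15.9% as higher and 17.6% as lower. The groups did not overlap for the same 4 members, against 50.6% of all tested genes. The members were proposed with results of this comparison known, so these counts are a description. The 4 changes were small: the median absolute log2 fold change was 0.473 over all genes that passed, and the largest here was 0.42.

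ASS1, which joins citrulline and aspartate, had the largest and best supported change among the members. It read 333, 352 and 324 CPM in siEIF4G2 replicates 1, 2 and 3, and 447, 447 and 456 CPM in siNC replicates 1, 2 and 3. The highest siEIF4G2 library thus lay well below the lowest siNC library. The log2 fold change was -0.42 (SE 0.044; edgeR adjusted p = 0.00137), which is a level 1.34-fold lower. The table also lists 11 ASS1 pseudogenes, which together held counts equal to 0.106% to 0.303% of those of ASS1 in any library, so only a small number of reads was assigned to these near copies.

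ASL, which releases arginine and fumarate in the next step, was lower by less. It read 18.5, 20.1 and 19.7 CPM in siEIF4G2 replicates 1, 2 and 3, and 22.6, 23.2 and 23.3 CPM in siNC replicates 1, 2 and 3. The log2 fold change was -0.24 (SE 0.064; edgeR adjusted p = 0.0306), a level 1.18-fold lower. All 3 siEIF4G2 values lay below all 3 siNC values. The call rested on having 6 libraries: its adjusted p was 0.0668 to 0.0885 on leaving out any library but siEIF4G2 replicate 2, and 0.0466 without that one.

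CAD, whose carbamoyl phosphate feeds pyrimidines, was higher after silencing. It read 121, 127 and 127 CPM in siEIF4G2 replicates 1, 2 and 3, and 106, 106 and 105 CPM in siNC replicates 1, 2 and 3. The siNC libraries were nearly identical and all lay below the siEIF4G2 libraries. The log2 fold change was 0.24 (SE 0.041; edgeR adjusted p = 0.00681), a level 1.18-fold higher.

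ARG2, the mitochondrial arginase, had a larger fold at a far lower level. It read 6.41, 6.95 and 7.46 CPM in siEIF4G2 replicates 1, 2 and 3, and 5.09, 5.03 and 5.73 CPM in siNC replicates 1, 2 and 3, and the groups did not overlap. The log2 fold change was 0.39 (SE 0.112; edgeR adjusted p = 0.0398), a level 1.31-fold higher. Its adjusted p was 0.051 to 0.114 on leaving out any of the 6 libraries. The exons of ARG2 share 904 bases with those of VTI1B on the opposite strand, which had a mean of 5650 counts. VTI1B itself had a log2 fold change of 0.20 (edgeR adjusted p = 0.0397), and without strand in the counting reads of the pair cannot be told apart.

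CPS1 did not pass, and its groups overlapped. It read 2360, 2798 and 2503 CPM in siEIF4G2 replicates 1, 2 and 3, and 2396, 2255 and 2465 CPM in siNC replicates 1, 2 and 3, so siEIF4G2 replicate 1 lay below siNC replicates 1 and 3. The log2 fold change was 0.11 (SE 0.073; edgeR adjusted p = 0.306). Its 95% interval ran from -4.76% to 21.7%, which leaves room for a change of that size. Without siEIF4G2 replicate 2, the highest library, the log2 fold change was 0.04, and without siNC replicate 2, the lowest, it was 0.07. Leaving out any 1 library put it between 0.04 and 0.16, the largest value being that without siEIF4G2 replicate 1.

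GLUL, glutamine synthetase, read 53.6, 52.3 and 54.7 CPM in siEIF4G2 replicates 1, 2 and 3, and 53.7, 52.1 and 60.4 CPM in siNC replicates 1, 2 and 3. Apart from siNC replicate 3 the 5 values lay within 52.1 to 54.7 CPM. The log2 fold change was -0.05 (SE 0.069; edgeR adjusted p = 0.62), with a 95% interval from -0.22 to 0.12, and it was 0.02 without siNC replicate 3. NAGS read 1.34, 1.17 and 2.1 CPM in siEIF4G2 replicates 1, 2 and 3, and 1.31, 2.21 and 1.86 CPM in siNC replicates 1, 2 and 3 (log2 fold change -0.22, SE 0.302; edgeR adjusted p = 0.61). The interval for NAGS ran from -0.96 to 0.51 and holds the value seen for ASS1, with 77 to 148 counts per library and groups that overlapped. Its log2 fold change was -0.51 without siEIF4G2 replicate 3 and -0.05 without siNC replicate 2.

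**Figure D2:**
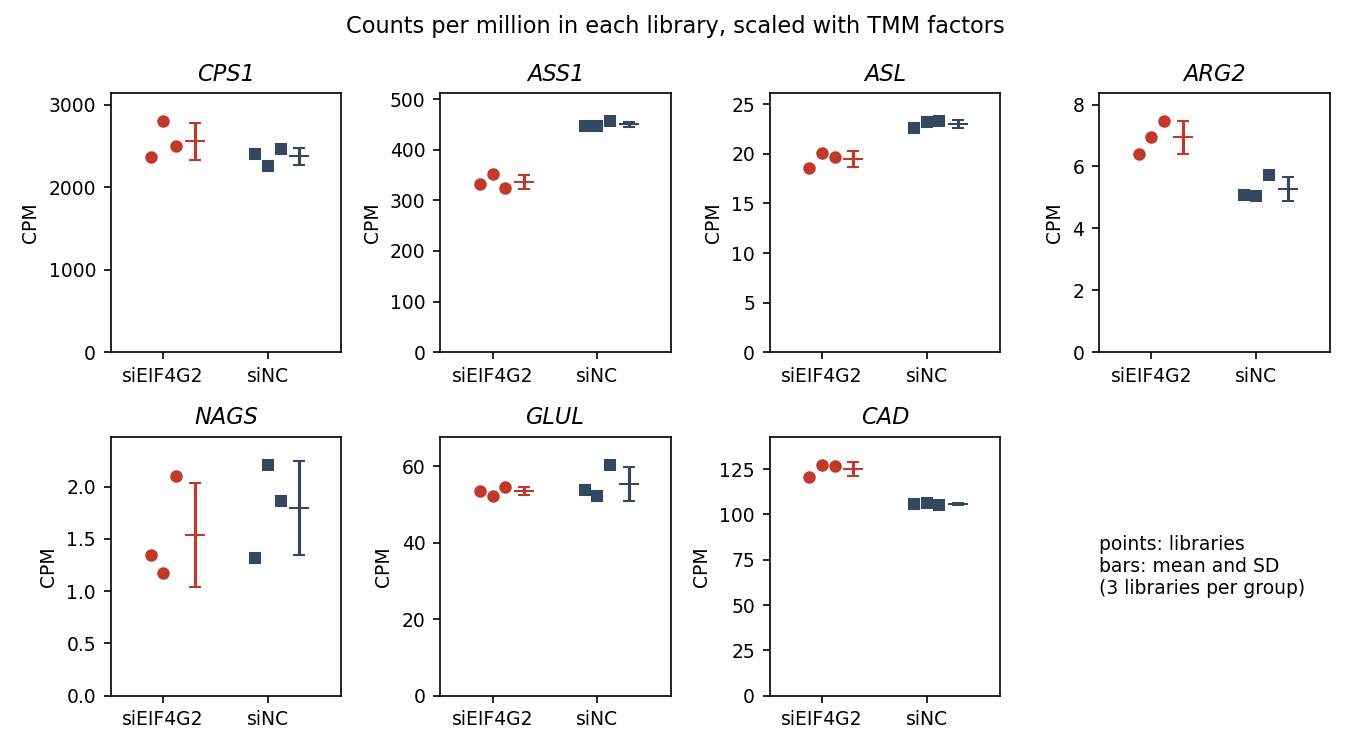
CPM of the 7 tested members in each library, each panel on its own axis from 0, with points for libraries and bars for the mean and SD of 3 libraries per group. ASS1 and ASL lie lower and CAD and ARG2 higher in siEIF4G2 with no overlap of groups, while the points of CPS1, NAGS and GLUL overlap.

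**Figure D3:**
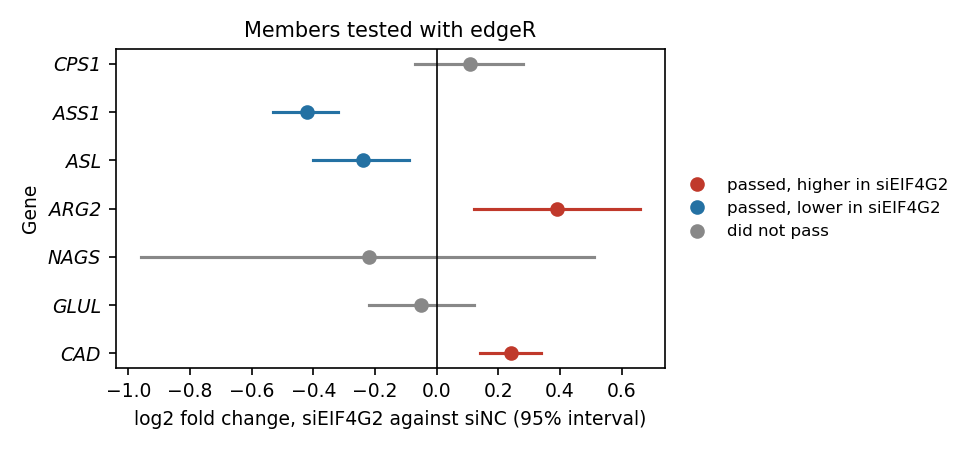
Log2 fold change of siEIF4G2 against siNC with its 95% interval from edgeR, for the 7 tested members. The intervals of ASS1 (-0.53 to -0.32) and CAD (0.14 to 0.34) lie on opposite sides of 0, and that of CPS1 (-0.07 to 0.28) holds 0.

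**Figure D4:**
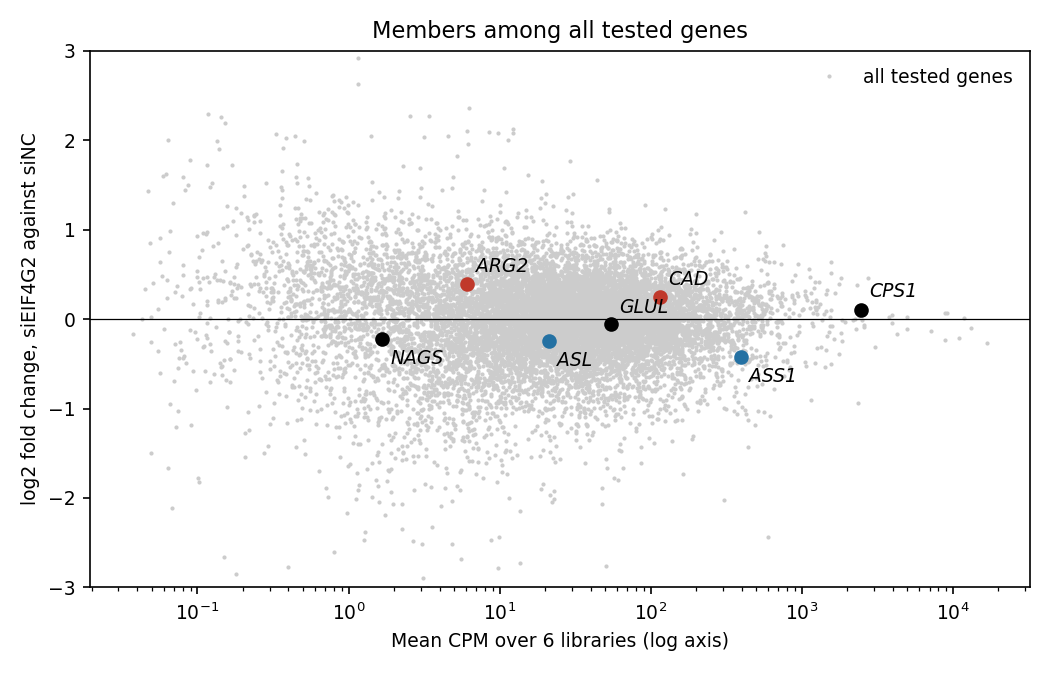
Log2 fold change against mean CPM on a log axis for all 13748 tested genes (grey) with the 7 tested members marked, red for higher, blue for lower and black for not passed; 13 genes lie beyond the axis limits of 3. The members lie inside the cloud of genes at their level, with CPS1 near its right edge.

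Because ASS1 fell while CPS1 did not, their ratio differed between groups, a value looked up after the levels had been seen. The FPKM ratio of CPS1 to ASS1 was 1.94, 2.18 and 2.12 in siEIF4G2 replicates 1, 2 and 3, and 1.47, 1.38 and 1.48 in siNC replicates 1, 2 and 3. The ratio of CAD to ASS1 was 0.13, 0.129 and 0.14 in siEIF4G2, and 0.0846, 0.0849 and 0.0823 in siNC. Both ratios were higher in every siEIF4G2 library than in any siNC library. They describe messenger RNA, not enzyme or flux.

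The 4 members that passed are shown with the 250 bases before an annotated RefSeq start (GRCh38.p14), to set their promoters side by side. All lie on the plus strand and read 5′ to 3′, and capitals mark matches on either strand to any of 5 motifs. These were the E-box, CACGTG, the cyclic AMP response element, TGACGTCA, and the GC box, GGGCGG. The other two were the TATA box, spelled TATAAA, and the CCAAT box, which is spelled as its name. The ASS1 window is the one of its 2 that ends at the base before the start of the deposited gene interval.
ASS1 chr9:130444711-130444960: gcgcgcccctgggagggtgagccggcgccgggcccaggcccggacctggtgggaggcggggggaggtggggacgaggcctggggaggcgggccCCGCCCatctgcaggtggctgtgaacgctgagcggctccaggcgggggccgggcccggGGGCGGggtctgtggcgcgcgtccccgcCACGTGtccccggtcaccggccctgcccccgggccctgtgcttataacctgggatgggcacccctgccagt
ASL chr7:66075569-66075818: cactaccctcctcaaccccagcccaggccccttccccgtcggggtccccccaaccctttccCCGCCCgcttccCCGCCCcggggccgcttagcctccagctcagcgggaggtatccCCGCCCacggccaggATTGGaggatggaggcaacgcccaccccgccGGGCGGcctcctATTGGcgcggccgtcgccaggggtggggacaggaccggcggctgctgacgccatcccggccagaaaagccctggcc
CAD chr2:27217119-27217368: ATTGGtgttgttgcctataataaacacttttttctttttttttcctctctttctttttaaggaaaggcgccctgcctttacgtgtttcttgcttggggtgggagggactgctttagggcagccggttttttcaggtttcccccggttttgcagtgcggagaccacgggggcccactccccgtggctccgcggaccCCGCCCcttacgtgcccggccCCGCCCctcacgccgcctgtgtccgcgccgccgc
ARG2 chr14:67619670-67619919: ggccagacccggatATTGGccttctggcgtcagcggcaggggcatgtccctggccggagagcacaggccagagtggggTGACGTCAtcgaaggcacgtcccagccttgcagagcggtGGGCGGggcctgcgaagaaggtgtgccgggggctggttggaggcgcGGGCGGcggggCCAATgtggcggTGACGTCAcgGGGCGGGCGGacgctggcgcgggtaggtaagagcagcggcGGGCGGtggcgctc

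ARG2 held 2 cyclic AMP response elements, a motif found in 1.65% of all 35116 windows of this length, together with 5 GC boxes, of which 2 overlap each other, and 2 CCAAT boxes. ASS1 held an E-box, found in 6.34% of windows, and 2 GC boxes, found in 42.6%. The other ASS1 window held no E-box, and 1 of the 3 windows of CPS1, which did not pass, held one. ASL had 4 GC boxes and 2 CCAAT boxes, and CAD 2 GC boxes and 1 CCAAT box, where 32.0% of windows held a CCAAT box. None of these 4 windows held TATAAA. The GC content of the windows of ASS1, ARG2, ASL and CAD was 78.8%, 72.4%, 74.0% and 58.8%, with a median of 58.0% over all windows. The 3 windows of CPS1, the most abundant, had 33.6%, 48.4% and 40.0%, and those of OTC and ARG1, at or near 0 counts, 40.4% and 37.6%. However, GLUL and NAGS, which did not pass either, lay above the median, GLUL with 74.8% and 71.2% and NAGS with 65.6%. These windows held 2, 2 and 5 GC boxes. The other ASS1 window had 68.4%. The motifs were chosen after the sequences had been seen. A match describes letters only and does not show that a factor binds.

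Genes on either side of the members were taken from lists drawn up by function. For each count of calls below, the share over all 13748 tested genes was 33.4%, with 15.9% higher and 17.6% lower. Among 8 carriers and bicarbonate suppliers of the urea cycle, 6 were tested, 1 was higher, 0 lower and 5 did not pass, with a median log2 fold change of 0.11 against 0.00745 over all tested genes; DESeq2 and limma each gave 2 calls, SLC25A13 being the second with limma. The 1 that passed was SLC25A15, which carries ornithine and citrulline across the mitochondrial membrane. It went from 22.1 ± 1.57 CPM in siNC to 36.8 ± 1.73 CPM in siEIF4G2 (SD, n = 3), and its log2 fold change was 0.73 (SE 0.076; edgeR adjusted p = 0.00136). SLC25A13, which exports aspartate from mitochondria for ASS1, had a log2 fold change of 0.11 (edgeR adjusted p = 0.121).

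Of 16 genes of glutamine and glutamate metabolism, 13 were tested, 4 were higher, 3 lower and 6 did not pass (median log2 fold change -0.09), and the 7 calls came to 4 without siNC replicate 3. ASNS, which uses glutamine to make asparagine, went from 24.2 ± 3.64 to 34.6 ± 2.24 CPM (log2 fold change 0.52; edgeR adjusted p = 0.0202). That call was lost without siEIF4G2 replicate 2 (0.058), siEIF4G2 replicate 3 (0.0558) or siNC replicate 3 (0.061). GLUD1, GOT1 and GOT2, the enzymes that link glutamate to the citrate cycle and to aspartate, had log2 fold changes of -0.09, 0.00 and -0.02, and none passed.

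Of 18 transporters of glutamine and arginine, 14 were tested, 2 were higher, 4 lower and 8 did not pass (median -0.06). SLC7A1, the widespread arginine importer, had a log2 fold change of 0.20 (edgeR adjusted p = 0.0183). Its call was lost without siEIF4G2 replicate 1 (0.0504), siNC replicate 2 (0.0608) or siNC replicate 3 (0.0528). The glutamine importers SLC1A5 and SLC38A2 did not pass, at 0.37 and -0.02 on the log2 scale (edgeR adjusted p = 0.146 and 0.818). SLC1A5 had 97.8 CPM in siNC replicate 1 against 145 and 152 CPM in the other siNC libraries, and stood at 0.20 without it. Singled out after the values had been seen, SLC7A2, a cationic amino acid transporter of liver and other tissues, went from 2.02 ± 0.117 to 10.4 ± 1.23 CPM, 5.15-fold higher (edgeR adjusted p = 0.000291). Its log2 fold change of 2.37 was 0.80 with limma on log2(FPKM + 1), a scale that understates changes of low genes, and a filter of 1 FPKM removed it.

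Of 21 genes of ornithine, proline and polyamine metabolism, 18 were tested, 6 were higher, 7 lower and 5 did not pass (median -0.05). Without siEIF4G2 replicate 1, siNC replicate 1 or siNC replicate 3 the 13 calls came to 8, 7 and 8. ODC1, which turns ornithine into putrescine and so opens polyamine synthesis, went from 69.8 ± 3.2 to 132 ± 5.39 CPM (log2 fold change 0.92, SE 0.055; edgeR adjusted p = 0.000359). OAT, ALDH18A1 and PYCR1 connect ornithine, glutamate and proline. OAT and ALDH18A1 lay at -0.19 and -0.14 on the log2 scale (edgeR adjusted p = 0.0453 and 0.0329), both lost on leaving out any 1 library (0.0532 to 0.113 and 0.0647 to 0.0937), and PYCR1 had 0.45 (0.0586, but 0.00562 without siEIF4G2 replicate 3). With 6 of the 10 other alternatives OAT missed the threshold, and with 5 of them ALDH18A1 did.

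Beyond CAD, all 16 listed genes of pyrimidine synthesis and salvage were tested, and 6 were higher, 2 lower and 8 did not pass (median 0.21). UMPS, which completes uridine monophosphate, went from 45.2 ± 4.14 to 60.2 ± 3.19 CPM (log2 fold change 0.41, SE 0.084; edgeR adjusted p = 0.0128). DHODH, between CAD and UMPS in the pathway, and CTPS1, which makes CTP from UTP with glutamine, did not pass. Their log2 fold changes were 0.29 and 0.20 (edgeR adjusted p = 0.117 and 0.196). Leaving out any 1 library gave 0.18 to 0.38 for DHODH and 0.13 to 0.29 for CTPS1. The lowest value of each was that without siNC replicate 3, and neither gene passed in any of these fits.

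The transcription factors that drive urea cycle genes in liver were mostly low. Of 12 listed, 4 were tested, 0 were higher, 2 lower and 2 did not pass. HNF4A, a master regulator of hepatocyte genes, had a mean of 0.018 FPKM in siEIF4G2 and 0.0126 FPKM in siNC. CEBPA and CEBPB, which bind promoters of several urea cycle genes, lay at -0.50 and -0.35 on the log2 scale (edgeR adjusted p = 0.0234 and 0.0219). CEBPA missed the threshold where low genes were not filtered out (0.0519), and with limma on log2(FPKM + 1) its change was -0.30. Without 1 library, each call was lost in 4 of 6 cases. For CEBPA these were siEIF4G2 replicate 1 (0.0725) or 3 (0.0673) and siNC replicate 2 (0.0645) or 3 (0.0507), and for CEBPB siEIF4G2 replicate 1 (0.0666) or 3 (0.0664) and siNC replicate 1 (0.0705) or 2 (0.0698).

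**Figure D5:**
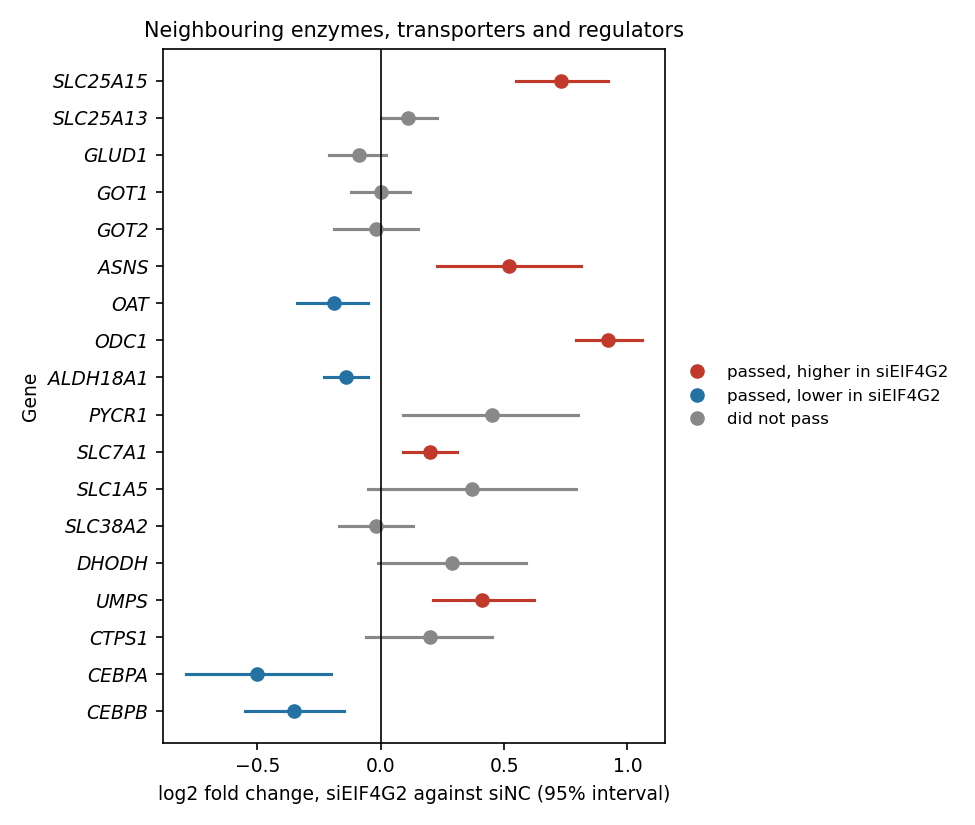
Log2 fold change of siEIF4G2 against siNC with its 95% interval for 18 tested genes that share a substrate, product or transport step with a member or regulate urea cycle genes in liver. ODC1 (0.92) and SLC25A15 (0.73) lie farthest to the right and CEBPA (-0.50) farthest to the left.

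The KEGG pathways in the deposited table gave 2 larger gene groups around the members. Under alanine, aspartate and glutamate metabolism 23 of 35 genes were tested, with 4 higher and 7 lower (median -0.09), and 5 of the 35 are members. These 11 calls came to 7, 5, 7 and 6 without siEIF4G2 replicate 3 and siNC replicates 1, 2 and 3. Under pyrimidine metabolism 45 of 57 were tested, with 10 higher and 9 lower (median -0.04).

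Among the genes compared, those whose levels moved most like CPS1 over the 6 libraries were ZNF574, NAPRT and GNL2. Left out were pseudogenes, names holding a dot and names starting with LINC, LOC, RPL, RPS, MIR or SNOR. The root mean square difference of centred log2 CPM from that of CPS1 was 0.022, 0.0331 and 0.0382 for ZNF574, NAPRT and GNL2. The median over the other genes compared was 0.212. For ASS1 the closest genes were CSTB, HEBP1 and OASL (0.0194, 0.0196 and 0.0219, against a median of 0.281), with log2 fold changes of -0.44, -0.41 and -0.44. With 6 libraries in 2 groups, the likeness to ASS1 mostly reflects the difference between groups. The groups of CPS1 overlapped, so likeness to CPS1 also reflects the scatter between libraries of the same group.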

How the data were processed

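The authors deposited one table with an estimated count and an FPKM value per gene and library. HISAT2 2.0 and StringTie 1.3.0 appear in the submitters' processing notes without roles, while genome build, annotation and use of strand were not given in the sources used here. Deposited intervals overlapped GENCODE 29 (GRCh38) for 99.9% of 58394 shared identifiers, so coordinates are given as GRCh38. Counts are deposited as whole numbers but behave as rounded estimates: of 131 low FPKM values turned back to reads, 16.8% lay within 0.1 of a whole read. FPKM, per the file headers, followed the summed exon length of GENCODE 29 within 2% for 77.0% of 11504 genes with at least 200 counts in every library. Where the count is 0 the authors list 0.0001 FPKM.

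edgeR 4.0.16 (R 4.3.3) fitted the group only, with TMM factors of 0.985 to 1.02, over the 13748 genes reaching 0.5 FPKM in 3 or more libraries, rows sharing a symbol reduced to the highest mean FPKM. Quasi-likelihood p-values are two-sided and Benjamini-Hochberg adjusted over all tested genes. The SE is the absolute log2 fold change over the square root of F, and 95% intervals are unadjusted. The fit was tested on simulated counts. limma 3.58.1 and DESeq2 1.42.0 served as alternatives, with other scalings and filters, a replicate block and each library left out.

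Members and lists were chosen with earlier results of these data known. Named genes were all members, EIF4G2, neighbours taken for a shared substrate, product, transport step or regulation, of which 1 is not reported here, and the 3 genes most like CPS1 and like the member with the largest change. SLC7A2, VTI1B and the genes of the closing observations were chosen after their values were seen. Promoter windows came from RefSeq, and all 9 members matched, with 13 windows. Lists of adipocyte, leukocyte and endothelial markers were also looked up. The 6 adipocyte markers summed to at most 0.155 FPKM in siEIF4G2 and 0.266 in siNC, the 6 leukocyte markers to 7.73 to 9.63 and 12.1 to 14.1, and the 4 endothelial markers to 0.439 to 0.55 and 1.34 to 1.42. Of 6 genes of nitric oxide synthesis, 3 were tested and 0 passed with edgeR, DESeq2 or limma, 0 also at an unadjusted p under 0.05, while 1 passed without siEIF4G2 replicate 1.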

Additional observations from a re-analysis of the deposited data

How the results depend on the processing

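The silencing of EIF4G2 and the calls of ASS1 and CAD held under all 16 alternatives, with ranges on the log2 scale of -2.50 to -2.35 for EIF4G2, -0.46 to -0.39 for ASS1 and 0.23 to 0.27 for CAD. CPS1 and GLUL passed under none of the 16, nor NAGS under the 15 that tested it, since it was removed by a filter of 1 FPKM. The number of members that passed, 4, fell to 2 with no filter on low values and to 2 with a replicate block, and lay between 2 and 3 on leaving out 1 library. With no filter, ASL and ARG2 had adjusted p = 0.0805 and 0.0823, and with the block 0.0668 and 0.0634. Over all genes, 4597 calls became 3909 with no filter, 5343 with DESeq2, 3736 with the replicate block and 3352 to 4134 without 1 library. Over the 7 non-marker lists, the 37 calls became 25 to 33 without 1 library. No label says whether replicate numbers pair the libraries, and the deviation correlations were too weak to decide it. Same-numbered libraries had -0.00544, 0.0269 and 0.0447. Another number gave a higher correlation for siEIF4G2 replicates 1 and 2 and for siNC replicate 1, but not for the remaining libraries. The block changed no other member's call and ended that of ASNS, OAT, ALDH18A1, AZIN1 and VTI1B among the genes named in the report.

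Genes near 0 changed sign without passing: GLUL was 0.02 without siNC replicate 3 (-0.09 to 0.02 over the leave-outs), and GOT1 was 0.0 to 0.03 (0.0, 0.01, 0.02 or 0.03) under 12 alternatives. GOT2 was 0.0, 0.01 or 0.02 and SLC38A2 0.0, 0.01 or 0.03 under library totals, limma or single leave-outs. Over the leave-outs GOT1 lay between -0.04 and 0.03, GOT2 between -0.09 and 0.02 and SLC38A2 between -0.06 and 0.03. Of 4 called members 2, and of 9 called neighbours 3 (SLC25A15, ODC1 and UMPS), passed in every leave-out. Calls of VTI1B were lost in 5 of 6 (adjusted p 0.0839 to 0.107), all but that without siNC replicate 2. Depth limits ARG1 and OTC, with few or 0 counts. Levels between genes were also set per kilobase of the longest coding transcript, an alternative chosen after seeing the data. It left the order of members the same, while the summed exon length would exchange GLUL and ASL.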

Other observations

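Downstream of ornithine, the polyamine genes moved in both directions. SMS, spermine synthase, went from 249.8 ± 2.35 CPM in siNC to 322 ± 11.7 CPM in siEIF4G2 (log2 fold change 0.37; edgeR adjusted p = 0.00184). SMOX, which oxidises spermine, went from 46.0 ± 1.26 to 78.9 ± 3.58 CPM, 1.72-fold higher (edgeR adjusted p = 0.000442). AGMAT, annotated as an agmatinase, was 1.65-fold higher (edgeR adjusted p = 0.00583). SAT1, which acetylates polyamines for breakdown and export, went from 139 ± 9.75 to 65.5 ± 3.15 CPM, 2.12-fold lower (edgeR adjusted p = 0.000388). PRODH, which starts proline breakdown, was 1.84-fold lower (edgeR adjusted p = 0.0106), and its log2 fold change of -0.88 was -0.30 with limma on log2(FPKM + 1). All 5 genes had groups that did not overlap and passed on leaving out any 1 library. Less stable were SRM and AZIN1 of the same list, higher by 0.37 and 0.18 on the log2 scale (edgeR adjusted p = 0.0412 and 0.0399). Their calls were lost in 5 and 6 of the 6 leave-outs.

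Further genes came from the lists of glutamine and glutamate metabolism and of pyrimidine synthesis and salvage. PFAS, an enzyme of purine synthesis, went from 68.1 ± 1.83 to 100.3 ± 2.08 CPM, 1.47-fold higher (edgeR adjusted p = 0.000614). CDA, cytidine deaminase, went from 276 ± 8.73 to 148 ± 11.3 CPM, 1.87-fold lower (edgeR adjusted p = 0.000481). TYMS, thymidylate synthase, was 1.52-fold higher (edgeR adjusted p = 0.00444), and DCK, deoxycytidine kinase, 1.42-fold higher (edgeR adjusted p = 0.0035). PSAT1, which uses glutamate in serine synthesis, went from 89.3 ± 1.2 to 144 ± 0.664 CPM (edgeR adjusted p = 0.000263). These 5 genes also passed in every leave-out. GFPT2, which uses glutamine to make glucosamine phosphate, went the other way, from 6.8 ± 0.3 to 3.05 ± 1.27 CPM, 2.23-fold lower (edgeR adjusted p = 0.0263). That call was lost without siEIF4G2 replicate 3 (0.0825) or any 1 siNC library (0.061 to 0.0711), and its log2 fold change of -1.16 was -0.52 with limma on log2(FPKM + 1). The epithelial keratin KRT7 was 2.13-fold lower (edgeR adjusted p = 0.000682), and its relation to the members was not tested.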
